A study of Mus musculus with 14 samples.

Results

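CT26 cells, a mouse colon carcinoma line kept in culture, were compared with intestinal adenomas of the *Apc* Min/+ mouse, and the widest differences described here were in genes that define intestinal epithelium. The cells lacked measurable E-cadherin, *Epcam*, *Krt19*, *Hnf4a* and *Cdx1*, they carried high vimentin, *Snai2*, *Twist1* and *Twist2*, and 14 of 25 listed Wnt target genes were called lower in them. Higher in the cells were interferon-induced genes, enzymes of serine synthesis, ribosome biogenesis genes and part of the listed DNA replication and mitosis genes, while most glycolysis and cholesterol synthesis genes were not called in either direction.

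The comparison took 6 of the 14 arrays of the series, 3 of CT26 and 3 of adenoma, chosen by their sample labels alone. Adenoma samples were macroscopic lesions taken as whole tissue from mice labelled APCmin/+, which carry 1 germline mutant copy of *Apc* on a C57BL/6J background, and the study's sample list draws all 3 from 1 mouse. CT26 is a single established line of BALB/c origin obtained from ATCC, and no treatment is given for either group. The labels do not say that the 3 CT26 samples were separate cultures, so the p-values below measure the spread between these samples, which may be technical for CT26 and lies within 1 animal for adenoma. Strain, culture against whole tissue, and region and stage of the tumour all differ between the groups and cannot be told apart. In whole tissue, fewer cells of a type and less RNA per cell cannot be told apart either.

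An adenoma of the *Apc* Min/+ mouse is a benign epithelial growth that starts when the remaining *Apc* copy is lost, which frees β-catenin to switch on Wnt target genes through TCF/LEF factors. It keeps glands, differentiated daughter cells and a stroma of fibroblasts, vessels and immune cells. An established carcinoma line holds tumour cells only, and epithelial tumour cells can take on a mesenchymal programme, in which factors of the Snail, Zeb and Twist families shut down E-cadherin and other junction genes.

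Levels are log2 processed signals relative to the 75th percentile of each array, so that 0 is a rather bright probe and the lowest signals well above background lay between -5.31 and -4.59 on the 6 arrays. Each gene was read from its brightest probe. Where no array of the dimmer group was well above background, the difference is only a lower bound and is written as "at least". Such a gene was tested only because all arrays of the brighter group were well above background, so its direction was in effect fixed beforehand. Its p-value rests in part on readings not well above background and is no further support for the direction. Counts of called genes in the lists below include such genes. The limma test called 7403 of 15556 genes tested (47.6%) at a log2 difference of at least 1.2 and an adjusted p of at most 0.01, 3742 of them (24.1% of those tested) higher in CT26 and 3661 (23.5%) lower. A gene that was not called is not thereby shown to be at the same level in both groups. These shares are the background against which each count of called genes below is read. The lists were chosen with earlier results of these data known, so an excess of a list over these shares is not independent support. Where a count below is out of the listed genes on the array, it includes genes not tested. Its nearer background is all 21727 genes with a symbol, of which 3742 were called higher and 3661 lower. With the arrays scaled to their medians instead, 5936 genes were higher and 3319 lower, which moved the share of higher calls from 50.5% to 64.1%, because that scaling raised the median difference of the genes tested from 0.34 to 0.83 (log2). The median over all 21727 genes with a symbol was 0.11, and it is the reference for the list medians given here. It includes genes not tested. For lists measured in both groups almost throughout, such as DNA replication and ribosome biogenesis, a nearer reference is genes well above background on all 6 arrays. Their median was 0.6, and of these 12125 genes 3325 were called higher and 1173 lower. Within a group the arrays correlated at 0.988 to 0.9933 (adenoma) and 0.9729 to 0.9903 (CT26), and across groups at 0.7046 to 0.7284. The median SD between arrays was 0.343 (log2, n = 3) in CT26 and 0.183 (n = 3) in adenoma.

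**Figure D1:**
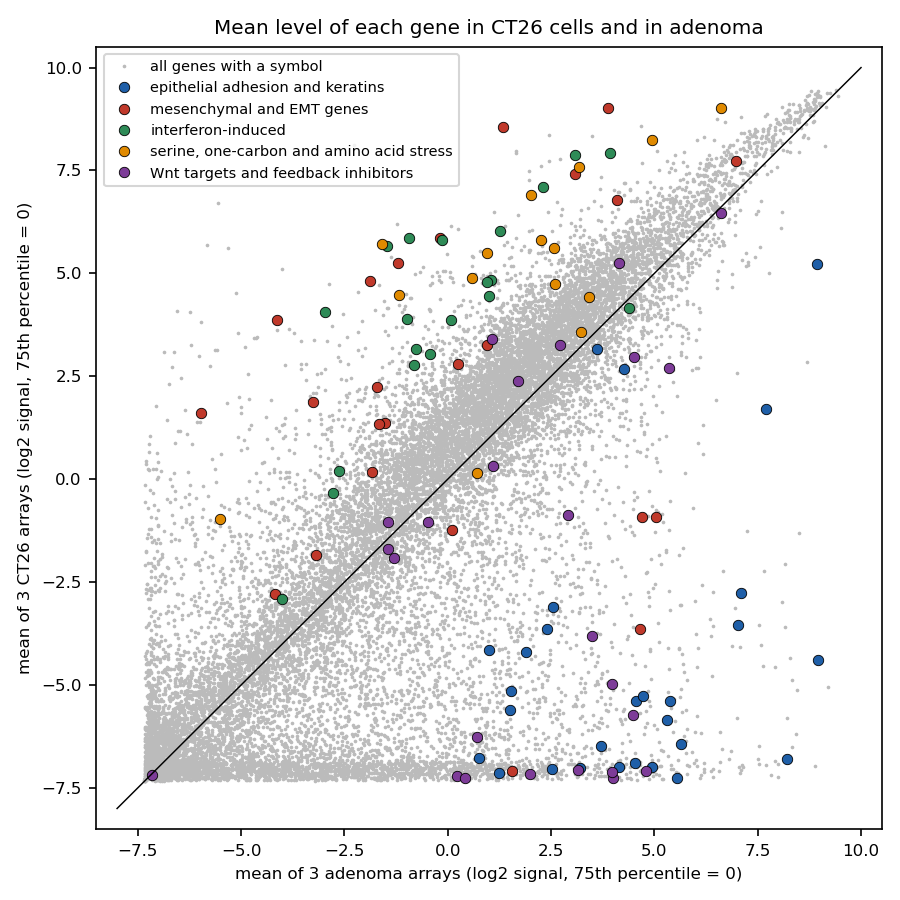
Mean level of each of 21727 genes in adenoma (horizontal axis) and CT26 (vertical axis), both as log2 signal with the 75th percentile of each array at 0, n = 3 arrays per group; coloured points are members of 5 gene lists and the line marks equal levels. Epithelial and most Wnt target genes lie far below the line, many of them at the CT26 background, and interferon-induced and serine synthesis genes lie above it.

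Junction and keratin genes hold an epithelial sheet together, and nearly all were lower in CT26. Of 28 listed genes 27 were called lower in CT26 and 0 higher, and the remaining one, *Pkp3*, differed by -0.46. The median difference of the list was -9.92 (-8.43 with bounds in place of fitted values), and 17 of the 28 genes were not well above background on any CT26 array, while all 28 were so on all 3 adenoma arrays. *Cdh1* encodes E-cadherin, the adhesion molecule of epithelial cells. Its probe (mm9, chr8:109193812-109193871) read -6.56, -7.09 and -7.27 in CT26 against 5.08, 4.84 and 4.94 in adenoma, at least 977-fold lower (limma adjusted p = 3.19e-08). The keratin *Krt19* (chr11:100002392-100002451) read -6.14, -7.27 and -6.96 in CT26 and 8.14, 8.43 and 8.05 in adenoma, at least 9320-fold lower (limma adjusted p = 3.33e-08). *Epcam*, an epithelial cell surface adhesion protein, was at least 1570-fold lower, with CT26 between -6.6 and -6.2 and adenoma between 5.37 and 5.94. The groups were far apart for each of these genes. Not all keratins were at background, since *Krt18*, the partner of *Krt8*, read 5.77, 4.92 and 5.05 in CT26 and 8.95, 9.06 and 8.79 in adenoma, a log2 difference of -3.69 (SE 0.267, limma adjusted p = 1.12e-05). *Krt8* itself was called lower, with 2 of 3 CT26 arrays well above background. The splicing factor *Esrp1*, which sets epithelial splice forms, was lower by a log2 difference of -5.63 (SE 0.194) while still well above background on all 6 arrays.

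The factors that repress junction genes bind the E-box CACCTG, read as CAGGTG on the other strand. RefSeq promoter sequences (GRCm38.p6), searched over the 250 bases before each start site on both strands, were at hand for 19 of the 28 genes, and 16 of their 23 promoters held the motif (69.6%), against 17.2% of all 32851 promoters. *Cdh1* has no entry in that table. A match is a stretch of letters, not a measured binding site. The promoters of *Epcam*, *Cldn7* and *Krt8* are shown 5′ to 3′, with the E-boxes in capitals, because each of these 3 genes was lower in CT26 on every array.
Epcam (chr17:87635729-87635978, plus strand): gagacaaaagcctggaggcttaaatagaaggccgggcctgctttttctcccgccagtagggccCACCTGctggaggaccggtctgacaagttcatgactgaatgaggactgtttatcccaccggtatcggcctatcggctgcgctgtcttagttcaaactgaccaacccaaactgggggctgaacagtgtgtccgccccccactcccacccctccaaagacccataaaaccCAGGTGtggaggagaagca
Cldn7 (chr11:69965171-69965420, plus strand): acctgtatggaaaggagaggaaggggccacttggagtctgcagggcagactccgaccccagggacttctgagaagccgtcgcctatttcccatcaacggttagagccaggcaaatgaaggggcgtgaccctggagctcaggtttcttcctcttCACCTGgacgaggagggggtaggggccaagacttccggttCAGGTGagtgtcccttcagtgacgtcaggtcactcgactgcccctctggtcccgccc
Krt8 (chr15:102004343-102004592, minus strand): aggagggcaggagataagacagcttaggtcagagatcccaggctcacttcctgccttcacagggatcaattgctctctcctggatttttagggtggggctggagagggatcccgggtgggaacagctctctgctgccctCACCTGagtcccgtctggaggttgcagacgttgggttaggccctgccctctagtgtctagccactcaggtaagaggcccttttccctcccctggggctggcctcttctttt

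Genes of the mesenchymal programme moved the other way. Of 24 listed genes 17 were called higher in CT26 and 5 lower, with a list median of 2.78. The repressors of the E-box group stood together: *Snai2* (chr16:14709361-14709420) read 5.51, 4.12 and 4.79 in CT26 and -1.82, -1.98 and -1.83 in adenoma, 103-fold higher (SE 0.342 on the log2 scale, limma adjusted p = 1.55e-06). *Zeb1* read 1.32, 1.43 and 1.34 in CT26 against -1.62, -1.7 and -1.22, a log2 difference of 2.88. *Zeb2* (3.95), *Snai1* (3.02) and *Twist2* (7.99) were higher as well, and no CT26 array overlapped an adenoma array for any of them. *Twist1* read 1.95, 1.69 and 1.15 in CT26 and was well above background on only 1 adenoma array, so that its fitted difference of 7.55 rests in part on readings not well above background. Vimentin, the intermediate filament of mesenchymal cells (*Vim*, chr2:13504232-13504291), read 6.47, 8.08 and 7.69 in CT26 and 3.07, 2.96 and 3.2 in adenoma, 20.2-fold higher (limma adjusted p = 4.46e-05). The calcium-binding protein *S100a4* was 149-fold higher, the receptor kinase *Axl* 65.3-fold, and the homeobox factors *Prrx1* and *Prrx2* by log2 differences of 5.12 and 6.47. The adhesion molecule *Cdh2* (N-cadherin) and fibronectin (*Fn1*) rose less, by 2.29 and 2.69. The 5 genes lower in CT26 were *Thy1*, *Acta2*, *Tagln*, *Tgfbi* and *Loxl2*. *Acta2* and *Tagln* encode contractile proteins of smooth muscle and myofibroblasts, and *Acta2* read -3.76, -3.53 and -3.63 in CT26 against 4.76, 4.66 and 4.56 in adenoma. *Cdh11* was called higher through its brightest probe and lower through another, and the call of *Cdh2* was lost on slide 1 only.

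**Figure D2:**
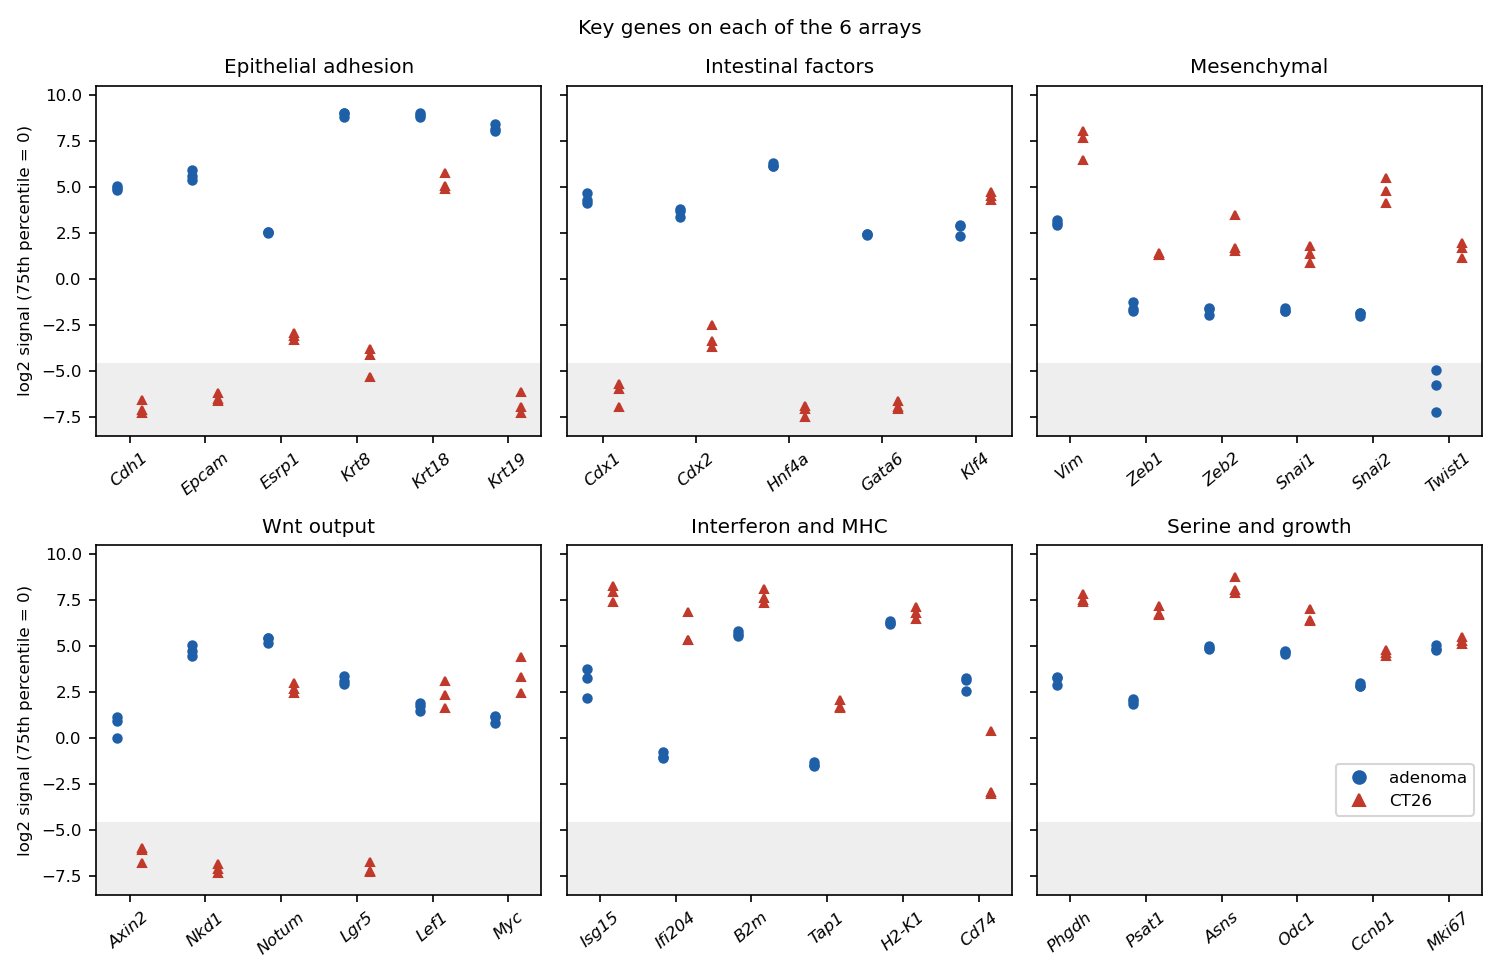
Level of 35 key genes on each of the 3 adenoma (circles) and 3 CT26 (triangles) arrays, as log2 signal with the 75th percentile at 0; signals in the grey band lie under -4.59, the highest of the 6 arrays' lowest signals well above background. *Cdh1*, *Hnf4a*, *Nkd1* and *Lgr5* fall into the band in CT26 only, and *Vim*, *Snai2*, *Isg15* and *Psat1* stand higher in CT26 without overlap.

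Intestinal identity factors were lower too. Of 23 listed transcription factors 20 were called lower in CT26 and 2 higher, with a median of -6.82, and 12 were at background on all CT26 arrays. *Hnf4a*, a nuclear receptor that drives enterocyte genes, read -6.86, -7.46 and -7.03 in CT26 and 6.15, 6.13 and 6.29 in adenoma, at least 2300-fold lower (limma adjusted p = 3.19e-08). *Cdx1* and *Gata6* were at least 651-fold and 171-fold lower. *Cdx2*, the master factor of intestinal fate, was weak but well above background in CT26 (-3.68, -2.5 and -3.36) and higher in adenoma (3.38, 3.73 and 3.83), a log2 difference of -6.82 (SE 0.326, limma adjusted p = 1.06e-06). The colonic *Hoxb13* was at background in both tumour groups (-7.19 to -6.72 in CT26 and -7.51 to -6.75 in adenoma), and *Car1*, a carbonic anhydrase of colonocytes, was not called between CT26 and adenoma (log2 difference 0.3, SE 0.372, limma adjusted p = 0.512).

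Products of differentiated intestinal cells were lower in CT26 in each lineage listed. All 23 enterocyte genes were called lower (median -9.31), as were 10 of 10 goblet cell genes (median -12.72), 7 of 7 Paneth cell genes (-11.07) and 13 of 15 enteroendocrine genes (-5.55). *Fabp1*, the fatty acid carrier of enterocytes, read -6.82, -7.42 and -7.35 in CT26 and 7.3, 8.06 and 8.1 in adenoma, at least 7130-fold lower (limma adjusted p = 3.19e-08). The mucin *Muc2* was at least 1760-fold lower, the goblet cell chaperone *Agr2* at least 7970-fold and the brush border protein *Vil1* at least 2670-fold. The Paneth cell *Lyz1* read -3.43, -3.67 and -3.56 in CT26 against 7.62, 7.23 and 7.7; its probe may share signal with the close copy *Lyz2*. Of 11 colonocyte genes 7 were lower and 0 higher. The tuft cell list had 7 of 10 genes lower and *Ptgs1*, which other cells express too, higher by 4.09. In the enteroendocrine list *Pax6* was the exception, at -1.75, -0.66 and -1.57 in CT26 and not well above background in adenoma, at least 12.8-fold higher. Genes of stomach and pyloric glands, which the adenomas carried, were lower for 11 of 12 (median -8.66): *Gkn3* read 8.01, 8.59 and 7.65 in adenoma and -2.69, -3.43 and -2.84 in CT26, beside -2.95, -2.02 and -2.17 in colon. The last of these is a colon sample that read -3.09 for *Car1*, against 7.17 and 7.75 in the other colon samples.

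**Figure D3:**
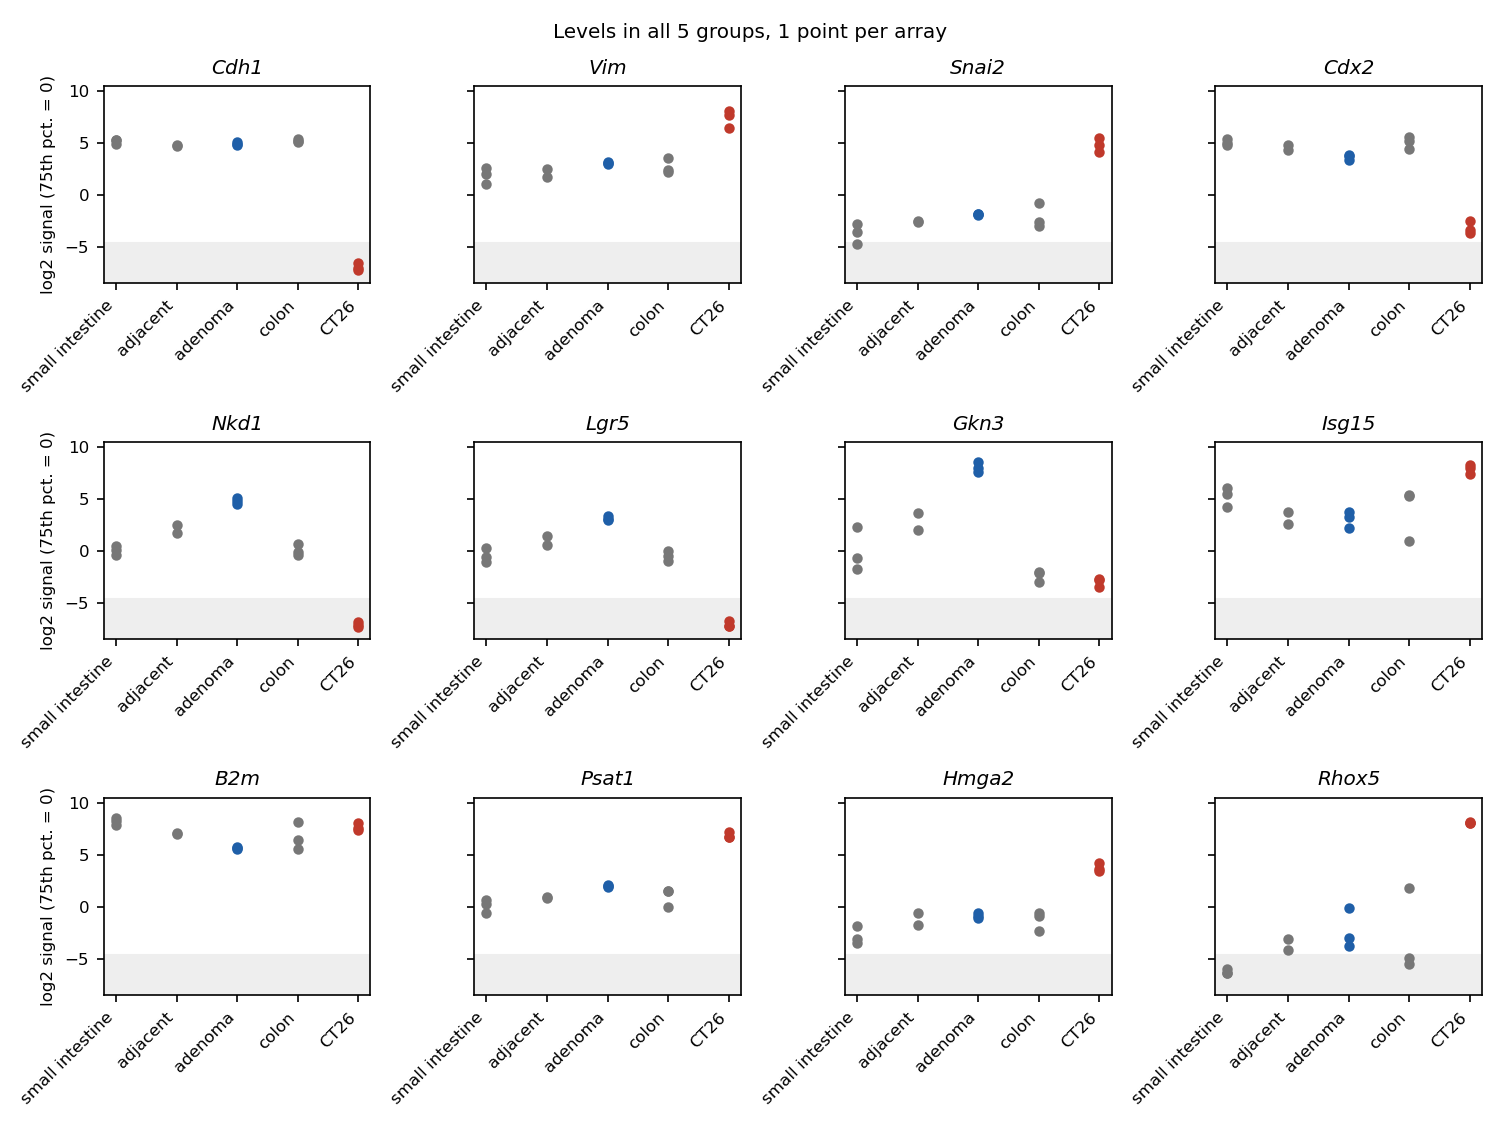
Level of 12 genes in all 5 groups of the series, 1 point per array, as log2 signal with the 75th percentile at 0 and the grey band under -4.59; adenoma is blue and CT26 red. *Cdh1* is low in CT26 only, *Nkd1*, *Lgr5* and *Gkn3* are highest in adenoma, *B2m* in small intestine lies in the range of CT26 or above it, and *Isg15* in small intestine lies between adenoma and CT26.

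Wnt target genes were mostly lower. Of 25 listed targets and feedback inhibitors 14 were called lower in CT26 and 1 higher, with a median of -2.66. Several feedback inhibitors of the pathway were at background in CT26: *Axin2*, a scaffold that feeds back on the pathway, read -6.78, -6.05 and -5.97 in CT26 and 0.93, 0.05 and 1.18 in adenoma, at least 51.9-fold lower (limma adjusted p = 1.57e-06). *Nkd1* (at least 871-fold), the secreted inhibitor *Wif1* (at least 510-fold), the ubiquitin ligase *Rnf43* (at least 708-fold) and the transcription factor *Sp5* (at least 498-fold) were not well above background on any CT26 array. *Notum*, a secreted enzyme that inactivates Wnt ligands, was still measured in CT26 at 2.99, 2.45 and 2.67 against 5.17, 5.47 and 5.44, a log2 difference of -2.66 (SE 0.219). Several genes counted as Wnt targets did not follow. *Lef1* (0.68), *Cd44* (0.57) and *Ephb3* (-0.14) overlapped between the groups and were not called, though 3 other probes of *Cd44* were called lower, and *Ccnd1*, at 1.1, missed the fold limit and passed it with median scaling (1.59). *Myc* alone was higher, reading 4.4, 2.48 and 3.32 in CT26 and 1.2, 0.85 and 1.14 in adenoma, a log2 difference of 2.34 (SE 0.447, limma adjusted p = 0.00248); the call was lost without adenoma replicate 2. Of the 16 target genes with a RefSeq promoter 2 (*Sp5* and *Tnfrsf19*) held the TCF/LEF letters CTTTGAT in the 250 bases, that is 8.7% of 23 promoters against 3.21% of all.

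Among receptors and intracellular parts of the pathway 8 of 23 were lower, 3 higher and 12 not called, and the list median of -0.45 became 0.04 with median scaling, so no direction is given for the group. β-Catenin itself (*Ctnnb1*) read 2.31, 3.35 and 2.89 in CT26 and 4.71, 4.53 and 4.7 in adenoma, a log2 difference of -1.8 (SE 0.282, limma adjusted p = 0.000893). *Apc* was not called (-0.15, SE 0.215), and the probe does not read the mutation. *Dvl2*, which relays the signal from Frizzled receptors, was higher by 2.77, and *Fzd9* and *Fzd1* were at least 30.5-fold and 21-fold lower.

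The stem cell markers of the crypt base were lower for the most part. Of 14 listed genes 8 were lower and 2 higher. *Lgr5*, the receptor that marks cycling crypt base cells, read -6.71, -7.28 and -7.22 in CT26 and 3.1, 2.96 and 3.38 in adenoma, at least 279-fold lower (limma adjusted p = 4.27e-08). *Smoc2* was at least 1380-fold, *Prom1* at least 4240-fold and *Olfm4* at least 61.2-fold lower. The genes that went up were the Polycomb gene *Bmi1* (3.13) and the cyclin-dependent kinase *Cdk6* (2.72). The 10 genes that the study names from its stem cell signature split, with 4 higher (*Slit2* 5.17, *Phgdh* 4.4, *Fads1* 2.06 and *Atad5* 1.39), 3 lower (*Lgr5*, *Axin2* and *Aqp4*) and 3 not called. The call of *Fads1* was lost without CT26 replicate 2 or 3 or adenoma replicate 2 or 3. That of *Atad5* was lost without CT26 replicate 1 or adenoma replicate 2. The number of these genes called higher was 2 without adenoma replicate 2 and 2 on slide 1 only.

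Genes of regenerating and fetal-like epithelium also split, 9 of 20 higher and 6 lower. The higher ones held the YAP targets *Ankrd1*, *Ccn1* and *Ccn2*: *Ccn1* (chr3:145310187-145310246) read 4.94, 5.04 and 5.14 in CT26 and 0.27, 0.05 and -0.14 in adenoma, 31.5-fold higher (SE 0.2 on the log2 scale, limma adjusted p = 4.12e-07). *Ankrd1* read 5.51, 3.61 and 4.46 in CT26 and was well above background on 1 adenoma array. *Spp1*, the matrix protein osteopontin, was higher by 4.49 and *Msln* by 3.83. *Clu*, a marker of regenerating crypts, was lower at 1.85, 3.33 and 3.37 against 8.68, 8.92 and 8.48 (log2 difference -5.84, SE 0.414), and the alarmin *Il33* was called lower with 1 CT26 array well above background. *Ly6a* (Sca-1) spread from 0.4 to 3.87 in CT26 around the adenoma values of 2.09 to 2.4 and was not called.

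**Figure D4:**
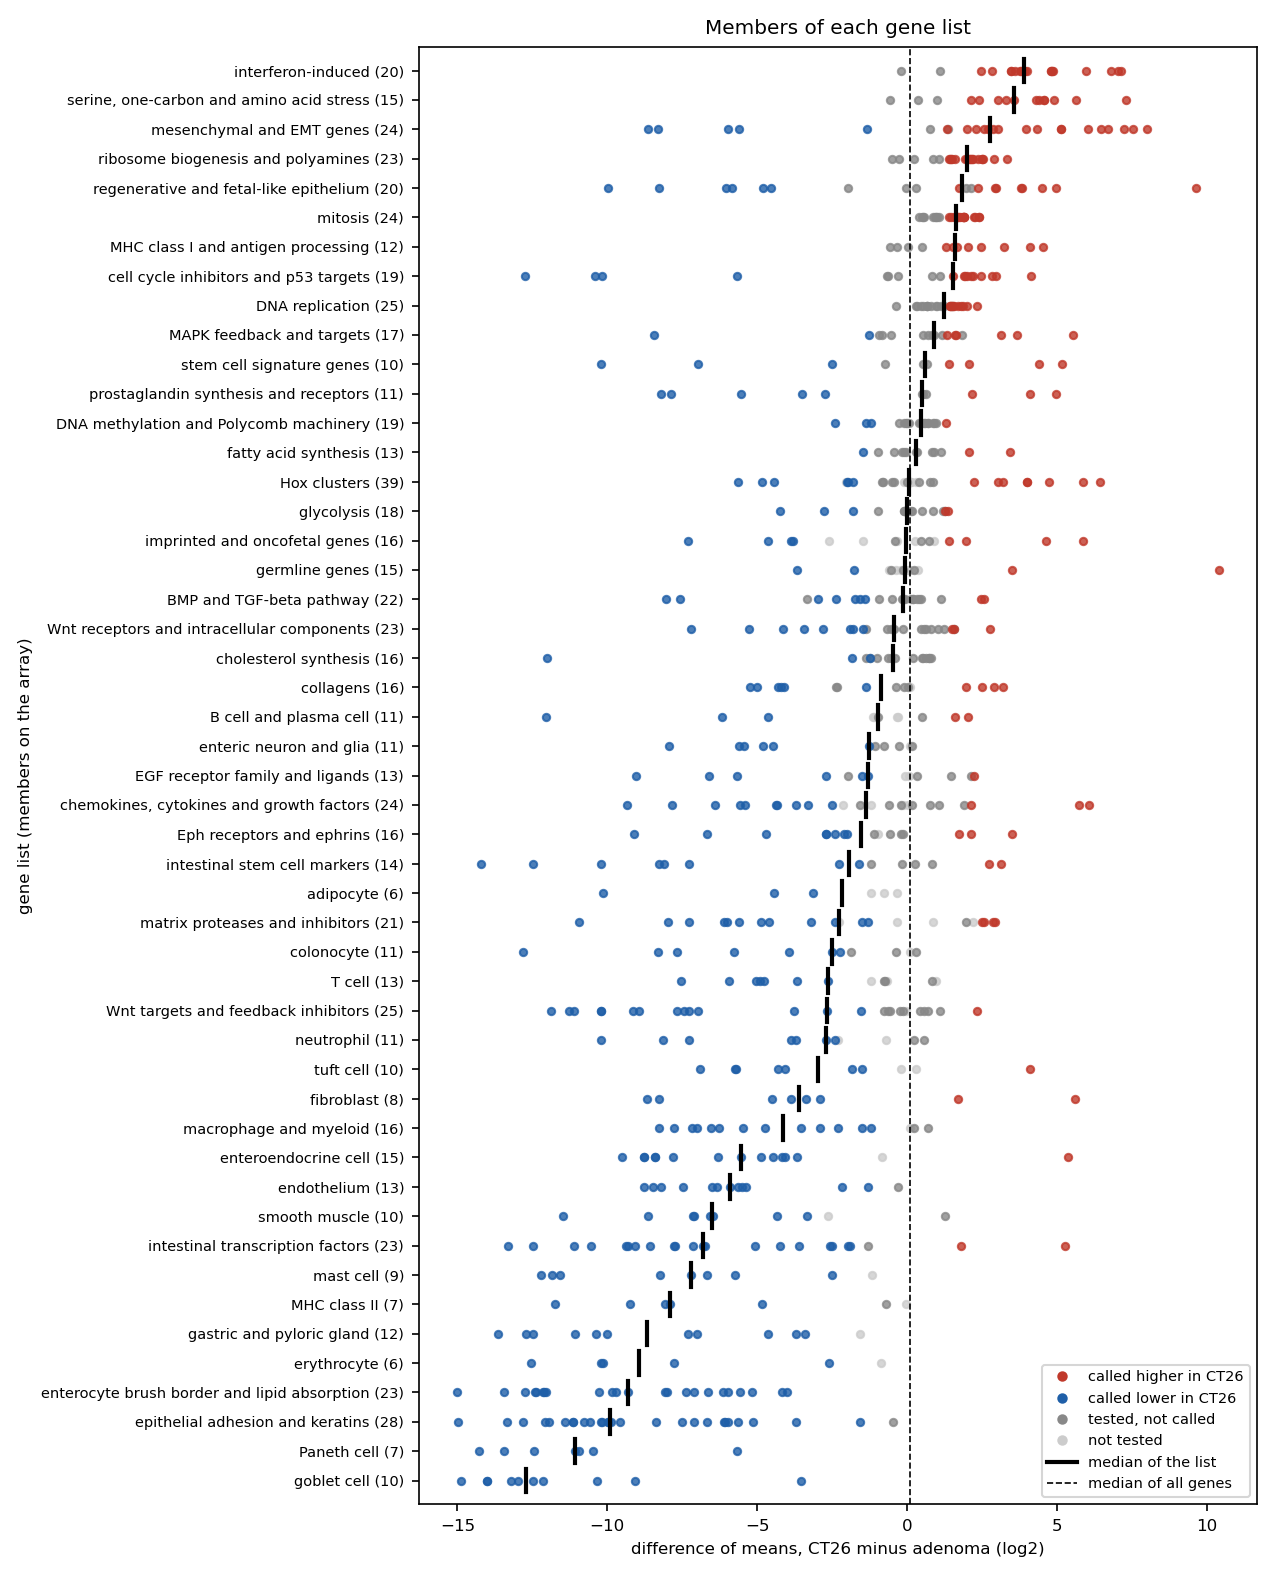
Difference of group means (CT26 minus adenoma, log2, n = 3 arrays each) for every member of 49 gene lists on the array, 1 point per gene; red and blue mark genes called higher and lower, grey those not called and light grey those not tested, bars mark list medians and the dashed line the median of all genes (0.11). Lineage lists lie far to the left, the interferon and serine lists to the right, and the DNA replication, mitosis and ribosome biogenesis lists have no gene called lower.

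Marker lists of stromal and blood cells had more genes called lower than higher in CT26, by the least for B and plasma cells (3 lower and 2 higher). Of the listed genes on the array the test called lower 12 of 13 for endothelium, 8 of 10 for smooth muscle, 6 of 8 for fibroblasts, 13 of 16 for macrophages, 7 of 11 for neutrophils, 8 of 9 for mast cells, 3 of 11 for B and plasma cells, 7 of 13 for T cells, 5 of 6 for erythrocytes, 6 of 11 for enteric neurons and glia and 3 of 6 for adipocytes. Fewer genes were tested in several of these lists, among them 9 for neutrophils, 7 for B and plasma cells, 10 for T cells and 3 for adipocytes. Summed levels (log2) ran from -1.82 to -1.47 in CT26 and from 5.68 to 7.05 in adenoma for mast cells, from 2.78 to 3.16 and from 5.58 to 5.65 for endothelium, from 4.01 to 4.16 and from 4.81 to 5.35 for macrophages, and from 5.9 to 6.4 and from 5.86 to 6.02 for neutrophils, where *Csf3r*, a receptor that was not called, gave nearly all of the sum. The defining markers *Cdh5*, *Myh11*, *Des*, *C1qa*, *Mcpt1*, *Jchain*, *Alas2* and *Vip* were at background on all CT26 arrays and well above it on all adenoma arrays. *Mcpt1*, a mast cell protease, read 4.03, 5.58 and 5.47 in adenoma. Members that were higher in CT26 were *Ogn* and *Pdgfrb* of the fibroblast list, and *Cr2* (2 of 3 adenoma arrays well above background) and *Tnfrsf17* of the B cell list. Matrix genes went in both directions: of 16 collagens 6 were lower and 4 higher. *Col1a1* spanned 2.5 to 4.77 in CT26 and 3.94 to 4.22 in adenoma and was not called, *Col3a1* was not called either (CT26 -1.34, 2.67 and 2.2, difference -2.34, SE 0.936), and *Col1a2* was higher in CT26 by 2.9. The part of stromal and blood cells in the other differences was not tested.

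Of 21 matrix proteases and inhibitors 12 were lower and 4 higher. *Mmp7*, a Paneth cell and tumour protease, was at least 853-fold lower, and both plasminogen activators, *Plat* (log2 difference -4.87) and *Plau* (at least 5.79-fold), were lower, while the inhibitors *Timp1* (2.49) and *Timp2* (2.93) and the protease *Mmp11* were higher and *Timp3* was lower. *Timp1* read 6.91, 4.75 and 5.06 in CT26 and 3.12, 3.1 and 3.04 in adenoma, and its call was lost without any 1 of the 3 adenomas, on slide 1 only and with quantile normalization.

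Interferon-induced genes were higher almost throughout. Of 20 listed genes 18 were called higher in CT26 and 0 lower, with a median of 3.89, the highest median of the lists, and the count stayed between 16 and 19 in all alternatives. *Isg15*, a ubiquitin-like modifier, read 8.27, 7.96 and 7.43 in CT26 and 3.76, 3.26 and 2.18 in adenoma, a log2 difference of 4.82 (SE 0.422, limma adjusted p = 3.42e-05). *Ifi44* was 142-fold higher, the antiviral GTPase *Mx2* 132-fold, the DNA sensor *Ifi204* by 6.79 and *Usp18*, which trims Isg15 from proteins, 62.8-fold. *Irf1* was not called (-0.21). In healthy small intestine *Isg15* read 4.19, 5.52 and 6.02, above all 3 adenomas and below all 3 CT26 samples.

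The interferon-stimulated response element, searched on both strands as a pair of TTTC with 2 free bases between them, was found in 10 of the 17 promoters of the 15 listed genes with a RefSeq entry (58.8%), against 2.98% of all promoters. The promoters of *Isg15*, where 3 matches overlap, and *Ifit1*, with 2, are shown 5′ to 3′ with the matches in capitals, since both genes are among the 18 called.
Isg15 (chr4:156200819-156201068, minus strand): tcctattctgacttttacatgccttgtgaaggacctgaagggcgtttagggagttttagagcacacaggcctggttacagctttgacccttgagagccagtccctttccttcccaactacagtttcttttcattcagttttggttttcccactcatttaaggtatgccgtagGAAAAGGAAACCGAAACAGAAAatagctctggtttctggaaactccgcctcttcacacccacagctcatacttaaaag
Ifit1 (chr19:34640639-34640888, plus strand): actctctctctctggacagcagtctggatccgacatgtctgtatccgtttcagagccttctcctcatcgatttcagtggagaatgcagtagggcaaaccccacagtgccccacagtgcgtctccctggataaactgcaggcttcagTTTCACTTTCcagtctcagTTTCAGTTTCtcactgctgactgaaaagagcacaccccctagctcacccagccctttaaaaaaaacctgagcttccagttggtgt

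Most MHC class I genes were higher and most class II genes lower. Of 12 class I and antigen processing genes 8 were higher and 0 lower. *B2m*, the light chain of class I, read 8.11, 7.64 and 7.37 in CT26 and 5.55, 5.82 and 5.69 in adenoma, a log2 difference of 2.02 (SE 0.242, limma adjusted p = 0.000205). The peptide transporter *Tap1* was higher by 3.24 and the class I transactivator *Nlrc5* by 4.1. Small intestine read 7.9 to 8.57 for *B2m*, in the range of CT26 or above it. The heavy chain *H2-K1* was not called (0.49) and *H2-D1* was, at 1.65, a call lost on slide 1 only, with quantile normalization and with the authors' table. BALB/c and C57BL/6J carry different *H2* haplotypes, and whether the probes bind both alike was not tested. Of 7 class II genes 5 were lower and 0 higher, with *H2-Ab1* at least 789-fold lower. *Cd74*, the class II chaperone, read 0.43, -2.92 and -3.03 in CT26, so that replicate 1 stood above the others, and 2.56, 3.28 and 3.18 in adenoma; its call was lost within slide 1.

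Signals to other cells differed in both directions. *Csf1*, the macrophage growth factor, read 7.2, 5.13 and 6.11 in CT26 and 0, 0.2 and 0.03 in adenoma, 67.3-fold higher (limma adjusted p = 1.69e-05). *Cxcl10*, an interferon-induced chemokine, was 53.1-fold higher and *Vegfa* by 2.13. Of 24 listed chemokines, cytokines and growth factors these were the 3 called higher, and 10 were lower, among them *Il18* (at least 170-fold), *Cxcl12* (at least 70.5-fold), *Cxcl16* (at least 44.9-fold) and the monocyte attractant *Ccl2* (-2.49). *Cxcl1* read 3.86 on 1 CT26 array and 0.19 and 0.02 on the others and was not called. Of the prostaglandin genes *Ptgs2* (6.22, 3.5 and 4.68 against 0.36, 0.23 and -1.06; difference 4.96, SE 0.684) and *Ptgs1* (4.09) were higher, and the degrading enzyme *Hpgd* (at least 50-fold) and the receptor *Ptger4* (at least 62.4-fold) were lower.

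Serine synthesis and the amino acid stress response were higher for most genes. Of 15 listed genes 12 were higher and 0 lower, with a median of 3.56, and the count was 11 to 13 in all alternatives. The pathway turns a glycolytic intermediate into serine and then into one-carbon units, and its genes and the amino acid stress genes answer to the transcription factor Atf4. All 3 enzymes of serine synthesis were higher: *Phgdh* read 7.84, 7.39 and 7.51 in CT26 and 3.31, 3.33 and 2.89 in adenoma (log2 difference 4.4, SE 0.227, limma adjusted p = 1.61e-06), *Psat1* differed by 4.89 and *Psph* by 4.55. The mitochondrial enzymes *Shmt2* (3.56) and *Mthfd2* (4.3) rose, whereas the cytosolic *Shmt1* (-0.56) and *Mthfd1* (1.0) were not called. *Asns* makes asparagine and rose by 3.31, the cystine carrier *Slc7a11* was at least 16.6-fold higher, and *Atf4* itself rose by 2.41. *Chac1*, a glutathione-degrading enzyme of the same response, read 5.86, 5.56 and 5.7 in CT26 and -1.36, -1.72 and -1.65 in adenoma, 156-fold higher (SE 0.202 on the log2 scale, limma adjusted p = 8.27e-08), and *Ddit3* (CHOP) was 50.1-fold higher.

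The amino acid response element TGATGNAA, or TTNCATCA on the other strand, was found in 3 of the 15 promoters of 14 listed genes (20%) and in 3.45% of all promoters. The promoters with a match belonged to *Asns*, *Chac1* and *Slc7a11*, and the first 2 are shown 5′ to 3′ with the match in capitals.
Asns (chr6:7693210-7693459, minus strand): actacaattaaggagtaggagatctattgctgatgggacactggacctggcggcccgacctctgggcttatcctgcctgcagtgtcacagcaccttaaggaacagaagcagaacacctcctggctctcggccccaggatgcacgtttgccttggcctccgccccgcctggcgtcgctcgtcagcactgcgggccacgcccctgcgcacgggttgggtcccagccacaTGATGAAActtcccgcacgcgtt
Chac1 (chr2:119350992-119351241, plus strand): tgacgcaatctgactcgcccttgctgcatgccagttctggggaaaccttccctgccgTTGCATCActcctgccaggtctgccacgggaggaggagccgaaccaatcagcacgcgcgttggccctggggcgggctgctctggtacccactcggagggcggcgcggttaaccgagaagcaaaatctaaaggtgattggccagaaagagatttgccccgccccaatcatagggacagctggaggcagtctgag

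Growth genes were higher in CT26 by smaller steps. Ribosome biogenesis and polyamine genes were called higher for 18 of 23 and lower for 0 (median 1.99), mitosis genes for 15 of 24 (median 1.62) and DNA replication genes for 11 of 25 (median 1.23). These counts lie near the fold limit: with median scaling they were 20, 20 and 17, and with the values normalized by the authors they were 13, 11 and 5. The lowest counts over all alternatives were 11, 4 and 2. *Srm*, which makes spermidine, read 6.89, 6.42 and 6.34 in CT26 and 3.23, 3.34 and 3.13 in adenoma, 9.97-fold higher, and the nucleolar protein *Nop56* was 7.52-fold higher. *Odc1*, the first enzyme of polyamine synthesis, differed by 1.92 (SE 0.234, limma adjusted p = 0.000229). The mitotic cyclin *Ccnb1* read 4.63, 4.8 and 4.5 in CT26 and 3, 2.84 and 2.83 in adenoma, a difference of 1.75. The proliferation marker *Mki67* separated the groups by 0.4 (SE 0.204, limma adjusted p = 0.12), and *Pcna* by 0.99. In adenoma *Mki67* read 4.84, 4.8 and 5.09, and in healthy small intestine 4.1, 3.16 and 2.54.

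Inhibitors of the cell cycle and p53 targets went both ways. Of 19 genes 10 were higher and 4 lower. *Cdkn2b* (p15) on chromosome 4 (88952276 to 88952335) was at -6.78, -7.37 and -7.3 in CT26 and 3.15, 3.35 and 3.26 in adenoma, at least 301-fold lower (limma adjusted p = 3.38e-08), its neighbour *Cdkn2a* at least 11.6-fold, *Cdkn1c* at least 284-fold and *Perp*, a p53 target that builds desmosomes, at least 1750-fold. Higher were the p53 targets *Cdkn1a* (p21, 2.14), *Mdm2* (1.99), *Bbc3* (Puma, 2.98), *Phlda3* (2.47), *Zmat3* (1.94) and *Ccng1* (1.52), and *Eda2r* was at least 4.91-fold higher. *Cdkn1a* read 5.34, 3.92 and 3.79 in CT26 and 2.17, 2.52 and 1.95 in adenoma, and its call was lost without adenoma replicate 3 and on slide 1 only. *Trp53* itself, at 1.09, missed the fold limit.

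Most listed genes of energy and lipid metabolism were not called. Of 18 glycolysis genes 2 were higher (*Pgk1* and *Pgam1*), 3 lower and 13 not called. The *Pgk1* probe lies on chromosome 3 in the files, whereas the gene is X-linked, so it may read a copy. *Ldha*, which makes lactate, read 8.65, 8.84 and 8.44 in CT26 against 8.65, 8.84 and 8.55. Of 16 cholesterol synthesis genes 13 were not called and 3 were lower. The desaturase *Scd1* was higher by 3.44. Medians of the glycolysis, cholesterol and fatty acid lists lay between -0.47 and 0.29 and changed sign between the scalings.

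*Egfr*, the receptor for epidermal growth factor, read -6.64, -5.94 and -7.12 in CT26 and 2.49, 2.48 and 2.42 in adenoma, at least 174-fold lower (limma adjusted p = 1.81e-07), and *Erbb3* was at least 10.9-fold lower, with 6 of 13 genes of the family lower and *Egf* higher. Feedback and target genes of the MAPK pathway were higher for 6 of 17 and lower for 2: the AP-1 factor *Fosl1* read 6.14, 3.17 and 4.2 in CT26 and -0.73, -1.06 and -1.28 in adenoma (difference 5.53, SE 0.667), *Spry4* rose by 3.66 and *Etv4* by 1.34 (a call lost on slide 1 only and with quantile normalization), and *Dusp6* (0.91) was not called. Of Eph receptors and ephrins 8 of 16 were lower, among them *Efnb1* with 1 CT26 array well above background, and 3 higher, *Efna5* by 3.49. In the BMP and TGF-beta list 7 of 22 were lower and 2 higher, with *Bmp4* at least 138-fold lower, the BMP target *Id1* lower by -2.98 (SE 0.271) and *Inhba* higher by 2.56; the list median changed from -0.15 to 0.34 with median scaling.

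Hox genes, which record position along the body axis, differed gene by gene. Of 39 on the array 22 were tested, 8 were called higher in CT26 and 6 lower. *Hoxc6* read 3.27, 3.65 and 3.44 in CT26 and -2.98, -2.99 and -1.33 in adenoma, 59-fold higher (SE 0.445 on the log2 scale, limma adjusted p = 1.45e-05). *Hoxb9* was at least 36.2-fold and *Hoxd4* at least 20.2-fold higher, with no adenoma array well above background, and *Hoxa10*, *Hoxd8*, *Hoxd3* and *Hoxb6* were higher too. *Hoxb2* (at least 13.1-fold), *Hoxb7* (at least 5.28-fold) and *Hoxb4* were lower, so that genes of the *Hoxb* cluster moved in both directions. Of the genes numbered 13 none was well above background on any CT26 array; *Hoxd13* stood at -1.75 on 1 adenoma array.

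**Figure D5:**
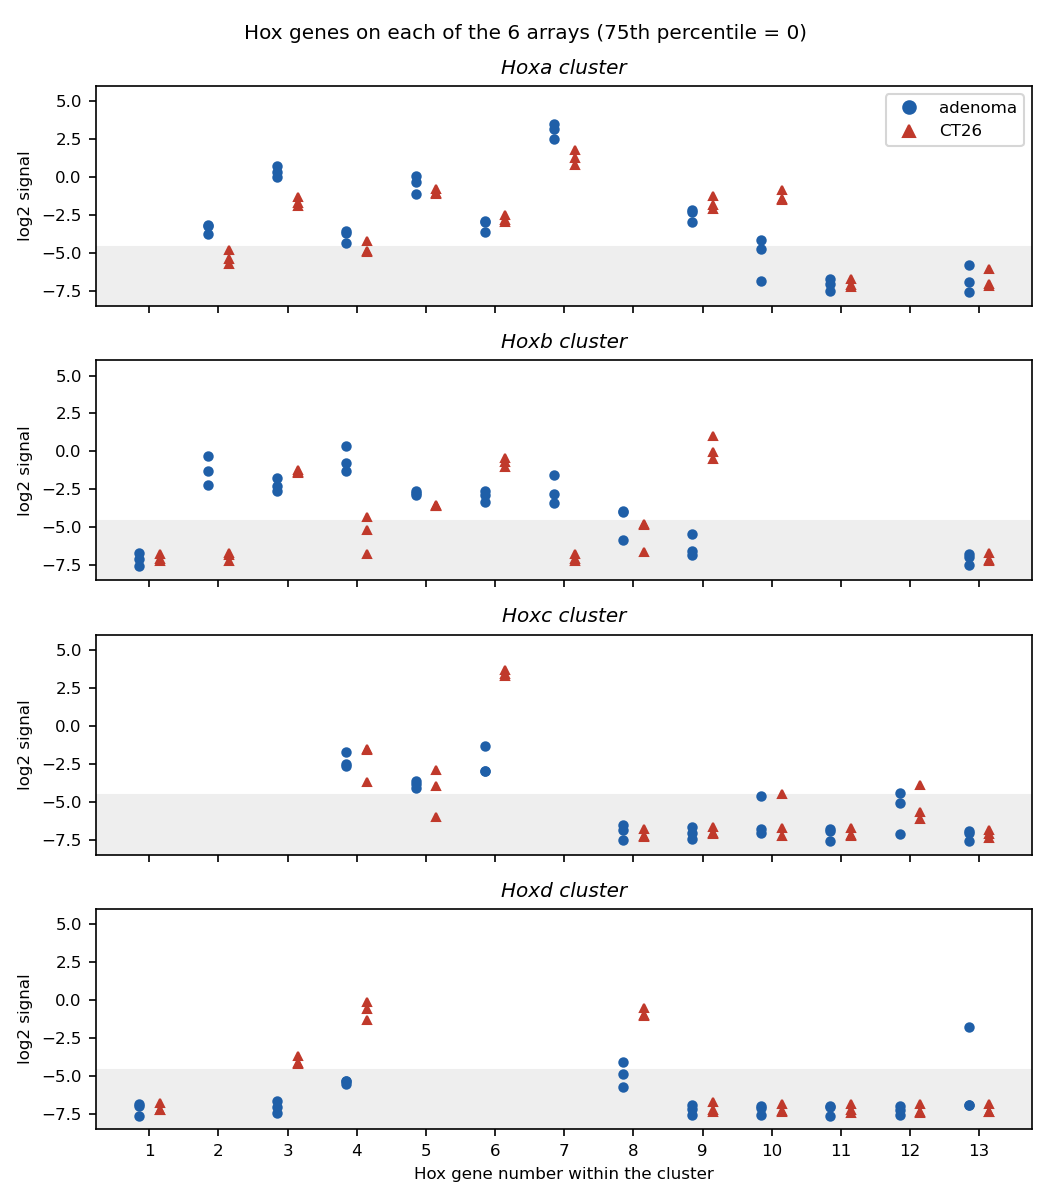
Level of 38 Hox genes on each of the 3 adenoma (circles) and 3 CT26 (triangles) arrays, as log2 signal with the 75th percentile at 0, by cluster and gene number; the grey band lies under -4.59. *Hoxc6*, *Hoxb9* and *Hoxd4* stand out in CT26, *Hoxb2* and *Hoxb7* in adenoma, and genes from number 11 up are mostly in the band.

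Among oncofetal and imprinted genes 4 of 16 were higher and 4 lower. The RNA-binding protein *Igf2bp1* read 3.42, 3.39 and 2.93 in CT26 and -1.65, -2.8 and -3.4 in adenoma, 58.3-fold higher, and *Hmga2* was higher by 4.64 (SE 0.257, limma adjusted p = 2.43e-06). The imprinted RNAs *H19* (-5.12, -5.08 and -6.38 in CT26, below background, against 2.36, 1.67 and 1.33) and *Meg3* (at least 7.02-fold) were lower. Of 15 germline genes 9 were at background on every adenoma array and 10 on every CT26 array. Among the genes higher in CT26 was *Rhox5*, an X-linked homeobox gene of this list. It read 8.07, 8.2 and 8.11 in CT26 and -0.06, -3.02 and -3.74 in adenoma. Its log2 difference of 10.4 (SE 0.838, limma adjusted p = 2.11e-05) was the largest rise among genes well above background on all 6 arrays. The DNA methylation and Polycomb machinery changed little, with 15 of 19 not called. *Dnmt3a* (-1.22) and *Dnmt3b* (-1.38) were just past the limit and lost their calls without adenoma replicate 1 or 3, and without CT26 replicate 3 (*Dnmt3a*) or 1 (*Dnmt3b*); *Jarid2* was lower by -2.4, and *Dnmt1*, *Uhrf1*, *Tet1* and *Ezh2* were not called, though 2 other probes of *Tet1* were called lower.

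Without regard to lists, the genes highest in CT26 against an adenoma background of 0 arrays well above background included *Syt10* (at least 1590-fold), *Gm10487* (at least 544-fold) and *Itgbl1* (at least 312-fold), and also *Nefm*, *9330188P03Rik*, *1700012B09Rik*, *Car6*, *Astl* and *Gm5168*. *Syt10*, a synaptotagmin, read 6.16, 5.85 and 4.86 in CT26. With both groups measured on all arrays, *Rhox5* was followed by the milk protein *Csn3* (9.1), *D5Ertd605e* (8.09), *Gm16430* (8.0), *Twist2* (7.99), *Rpl26-ps2* (7.75), *Glrp1* (7.62), *Slx* (7.5), *Oas2* (7.41), *Chac1*, *Osr1* (7.28), *S100a4*, *Ifi44*, *Mx2* and *Aldh1l2* (6.92), of which *Gm16430*, *Rpl26-ps2* and *Slx* have close copies that may share signal. In the other direction *Dmbt1*, a mucosal scavenger protein, was at least 14900-fold lower and *Prap1* at least 11000-fold, followed by *Defa3*, *Wfdc18*, *Zg16*, *Krt19*, *Defa40*, *Agr2*, *Defa32* and *Fabp1*; alpha-defensin genes are near-identical and their probes cannot be taken as single genes. Measured in both groups, the widest falls were in the galectin *Lgals2* (-12.61), *Atp9a* (-11.6), the mucin *Muc13* (-11.15), *Lyz1*, *Gkn3*, *Apoc2* (-10.92), *Myo1d* (-10.58), *Lsr* (-10.57), *Hba-a2* (-10.21), *Trf* (-10.19), *Gsta1* (-10.08), *Acp5* (-9.99), *Cldn7*, *Crip1* (-9.88) and *Gm10639* (-9.86).

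In 33 genes 1 probe was called higher and another lower. The desaturase *Scd3* had probes at 4.24 and -3.74 and its brightest at -0.46, *Arsk* at 3.17 and -3.41, *Epb41l5* at 2.68 and -5.42, *Tpm1* at 2.77 and -2.61 and *Arih1* at 2.32 and -2.47. The *Arih1* probe at 2.32 lost its call without adenoma replicate 2. A single value for such genes depends on the probe chosen.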

How the data were processed

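RNA of 14 samples was hybridized in one colour (Cy3) to Agilent SurePrint G3 Mouse arrays by the authors, who deposited scanner intensities (Agilent Feature Extraction 10.7.3.1, per the file headers; background subtracted in the processed signal). The authors also deposited a table of log2 values normalized between arrays by a method not given in the sources used here. That table also holds their own fold changes and p-values for group comparisons, which were not used, and 28 per-sample columns of flags and detection calls, not used either. Outlier spots were left out, processed signals were scaled to each array's 75th percentile over non-control probes, and log2 values of spots of a probe were averaged; 48 probe values on the 6 arrays were missing because all their spots were outliers. Depth has no meaning for arrays; their number limits the precision.

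CT26 was compared with adenoma by limma 3.58.1 (R 4.3.3, lmFit and eBayes, 2 classes, two-sided). Benjamini-Hochberg adjustment ran over 31013 probes well above background on all 3 arrays of at least 1 group. A gene not called may still differ. Of 55681 probes 26582 were named through RefSeq and 29099 kept the name in the files; genes were read from their probe with the highest mean signal. Coordinates of probes are mm9; promoter sequences are RefSeq GRCm38.p6. Of 784 genes in 51 lists 778 were found. The members and lists were chosen with earlier results of these data known. Named genes were the key members of each list, up to 5 further called members per direction and those opposing the list, the 15 genes per direction with the largest difference measured on all arrays, the 10 with the largest bound, and 5 with opposite probes. Alternatives covered background correction, scaling, filters, thresholds, batch and each array left out. Some genes that the rule named are not reported here.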

Additional observations from a re-analysis of the deposited data

How the results depend on the processing

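Of 188 key and top genes tested, 155 were called, 131 of these kept direction and call in every alternative that tested them, and no gene changed direction in any of 3691 pairs of gene and alternative. The count of genes higher in CT26 (3742) was 5936 with median scaling, 2472 with the authors' normalized table, 1706 at a log2 difference of at least 2 and 2346 on slide 1 only (2 arrays per group, chosen after seeing the data); the count of genes lower (3661) was 1173 with probes required well above background on all 6 arrays, which by construction drops genes lost from CT26. The other counts stayed within 1.5 times of these. Without 1 array the counts ranged from 3178 to 3777 higher and from 3403 to 3690 lower. Slides 1 and 2 each held both groups: with slide as a block the counts were 3698 and 3646. The replicate block gave 3739 and 3700; same-numbered arrays deviated together at correlations of only 0.0564, 0.0885 and 0.0139, so the numbers do not pair the samples. Every CT26 gene at background has only a bound, set by signal over background rather than by its true level. All adenomas came from 1 mouse, so differences between animals are not in any error given here.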

Other observations

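Some values bear on what the 2 groups are. *Xist*, the RNA of the inactive X chromosome, read 0.17, 0.17 and 0.19 in adenoma and -6.73, -7.37 and -7.27 in CT26, at least 35.6-fold lower, and the Y-linked *Uty*, *Ddx3y*, *Kdm5d* and *Eif2s3y* were not well above background on any of the 6 arrays. *Nnt*, partly deleted in C57BL/6J, read 3.28, 4.23 and 3.94 in CT26 and 1.45, 1.21 and 1.37 in adenoma (limma adjusted p = 0.00013). Healthy tissue of C57BL/6J mice lay between these, with colon at 2.6, 2.82 and 3.08 and small intestine at 3.12, 2.09 and 1.83. Whether the gap between CT26 and adenoma marks strain was not tested, nor whether the probe lies in the deleted exons.

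*Mtap*, which neighbours *Cdkn2a* and *Cdkn2b* and was singled out after their values were seen, read 1.56, 2.38 and 1.19 in CT26 and -0.89, -1.25 and -1.02 in adenoma, a log2 difference of 2.76 (limma adjusted p = 0.00017). Its RNA was thus higher in CT26, where that of *Cdkn2a* and *Cdkn2b* was lower. Gene copies at these loci were not tested.

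*Pla2g2a*, the *Mom1* modifier of *Apc* Min tumour number, whose C57BL/6 allele carries a frameshift, read 5.31, 5.44 and 5.47 in adenoma and was at background in CT26; the array measures RNA and not the reading frame.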
